A study of Mus musculus with 18 samples.

Results

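The genes described here encode proteases that act on the extracellular matrix and the cell surface, together with their inhibitors: the matrix metalloproteinases (MMPs), the ADAM, ADAMTS and ADAMTS-like families, the tissue inhibitors of metalloproteinases (TIMPs), the cathepsins and the serpins. They were chosen by gene symbol from the array's probe annotation, without Serping1. Of 151 such genes on the platform, 58 had a probe above background on 3 or more of the 18 arrays, out of 10834 genes that met this condition in the whole series. The family name fits most but not all of them. ADAMTS-like proteins lack a protease domain, most cathepsins work inside lysosomes, Adam23 has no protease activity, Serpinh1 is a collagen chaperone of the endoplasmic reticulum, and Serpinf1 (pigment epithelium-derived factor) does not inhibit proteases.

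RNA came from Wt1-GFP bright cells of embryonic mouse ventricles, which were dissociated with enzymes and sorted by flow cytometry. All 6 groups carry the same Wt1GFPKI allele, in which GFP reports the locus of Wt1, a gene that marks the epicardium in the embryonic heart, and they differ only in stage: E11.5, E12.5, E13.5, E14.5, E15.5 and E16.5, with 3 bead arrays each. There is no GFP-negative or wild-type group among these arrays. Whether the 3 arrays of 1 stage stand for different litters is not in the labels, and the p-values then cover only how these samples vary, which may be technical variation.

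The epicardium is the cell sheet that covers the heart. Some of its cells leave the sheet by epithelial-to-mesenchymal transition, enter the matrix below and become fibroblasts and mural cells, and movement of this kind is accompanied by turnover of matrix. MMPs are made as inactive proenzymes and cut collagens, laminins and other matrix proteins, and Mmp14 on the cell surface binds Timp2 and activates pro-Mmp2 through that complex, so that Timp2 can both help and inhibit. ADAMs shed membrane proteins, ADAMTS enzymes cut proteoglycans such as versican or process procollagen, and Timp3, which stays bound to the matrix, inhibits many of them as well as MMPs.

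All values are deposited probe intensities or their log2. A probe counted as above background over a floor of 109 intensity units, and each gene was represented by its brightest kept probe. Correlations within a stage were 0.961 to 0.996 across arrays, and replicate 1 of E13.5, E15.5 and E16.5 stood apart, with mean correlations to the rest of their stage of 0.962, 0.968 and 0.980. On replicate 1 of E16.5 and of E15.5, a list of 16 cardiomyocyte markers averaged 10.72 and 10.92 (log2), and on replicates 2 and 3 it averaged 8.84 to 9.17. Without these 3 arrays, every one of the 22 members called between E16.5 and E11.5 below was called again in the same direction. The epicardial list (14 of 16 markers measured) averaged 8.90 to 9.08 at E11.5, 7.99 to 8.07 at E14.5 and 8.88 to 9.24 at E16.5. The endothelial list (14 of 16 measured) averaged 10.40 to 10.68 at E16.5 and 7.30 to 7.39 at E11.5. The E11.5 averages lay above the floor (6.77 in log2), although Pecam1, Cdh5 and Tie1 did not pass it on any array of that stage. At least some other markers of the list were thus above the floor at E11.5. The fibroblast list (11 of 12 measured) averaged 9.90 to 10.03 at E16.5 and 8.68 to 8.89 at E11.5. The smooth muscle list had 10 of 12 markers measured, the leukocyte list 5 of 14 and the erythroid list 8 of 11. The smooth muscle list averaged 7.90 to 8.21 at E16.5 and 7.69 to 7.79 at E11.5, the leukocyte list 7.30 to 7.46 at E16.5 and 6.70 to 6.74 at E11.5, with 4 of its 5 measured markers called higher, and the erythroid list 9.09 to 9.42 at E16.5 and 6.76 to 7.73 at E11.5. In these bulk samples, fewer cells of a type and less RNA per cell cannot be told apart, and the part that the sorted cells' makeup has in the results below was not tested.

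**Figure D1:**
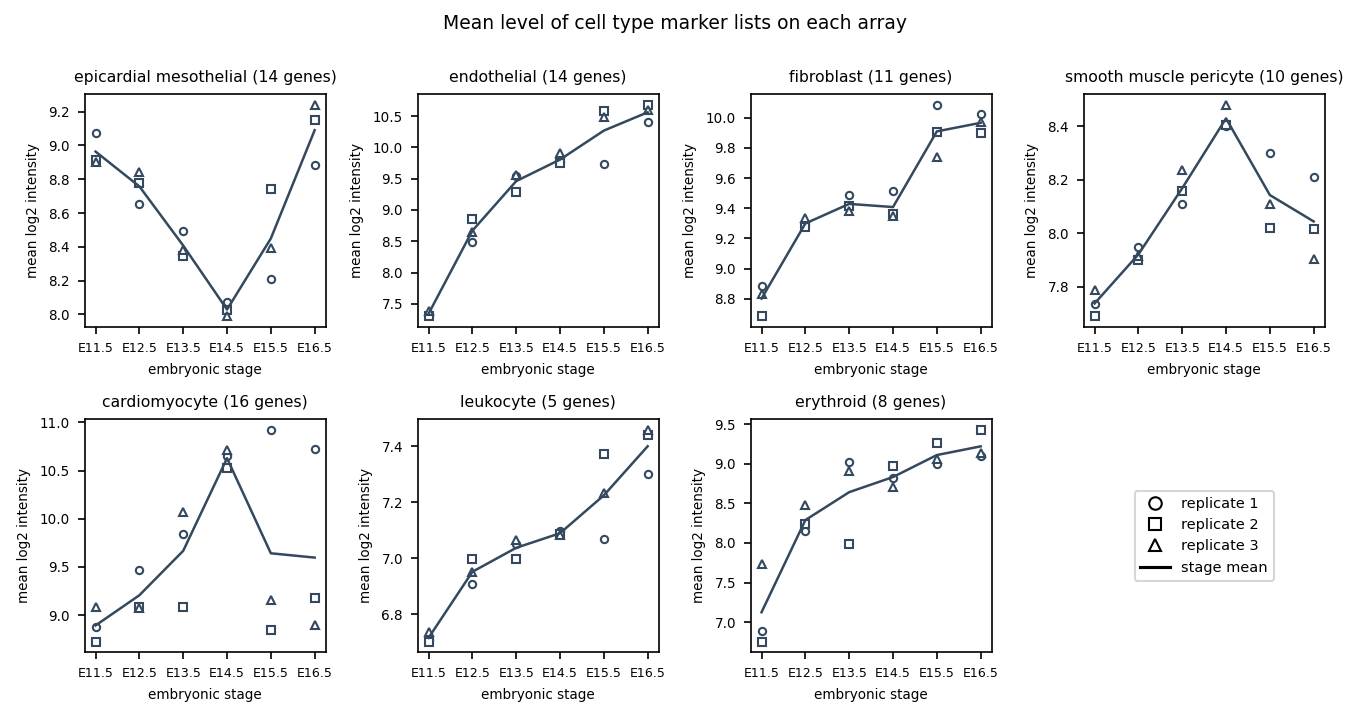
Mean log2 intensity (vertical axis) of each cell type marker list on each array, by embryonic stage; symbols are replicates 1 to 3 and lines are stage means. The endothelial list is higher at E16.5 (10.40 to 10.68) than at E11.5 (7.30 to 7.39), the epicardial list is lowest at E14.5 (7.99 to 8.07), and replicate 1 of E15.5 and E16.5 lies above the other arrays of its stage for cardiomyocyte markers.

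From E11.5 to E16.5 the protease and inhibitor genes changed unevenly: 17 of the 58 members were higher at E16.5 than at E11.5 and 5 were lower (limma, Benjamini-Hochberg adjusted p under 0.05 over all 10834 genes). These are 29.3% and 8.62% of the members, beside 15.9% higher and 18.7% lower among all genes tested. Both directions together make 37.9% of members and 34.7% of all genes, so the overall share called lies close to the background, and the split lies on the higher side. The median log2 difference was 0.04 over the members and -0.03 over all genes. Adam15, Timp2, Adam23, Adamts4, Timp3, Ctsk and Mmp2 were at least 2-fold higher at E16.5, 7 members in all, while 4.18% of all genes were 2-fold higher. No member was 2-fold lower at E16.5 by limma, beside 1.21% of all genes, and 5 members were lower by any amount at an unadjusted p under 0.05. No background was subtracted here from the intensities, and the background mode was 99 units. Folds of dim genes, in either direction, are therefore smaller than the ratios above background, which were not computed. A test of any difference among the 6 stages called 32 members (55.2%), beside 40.8% of all genes. The background filter can favour members that are high at some stages only, so these counts describe the 58 kept genes and not the 151 on the platform.

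**Figure D2:**
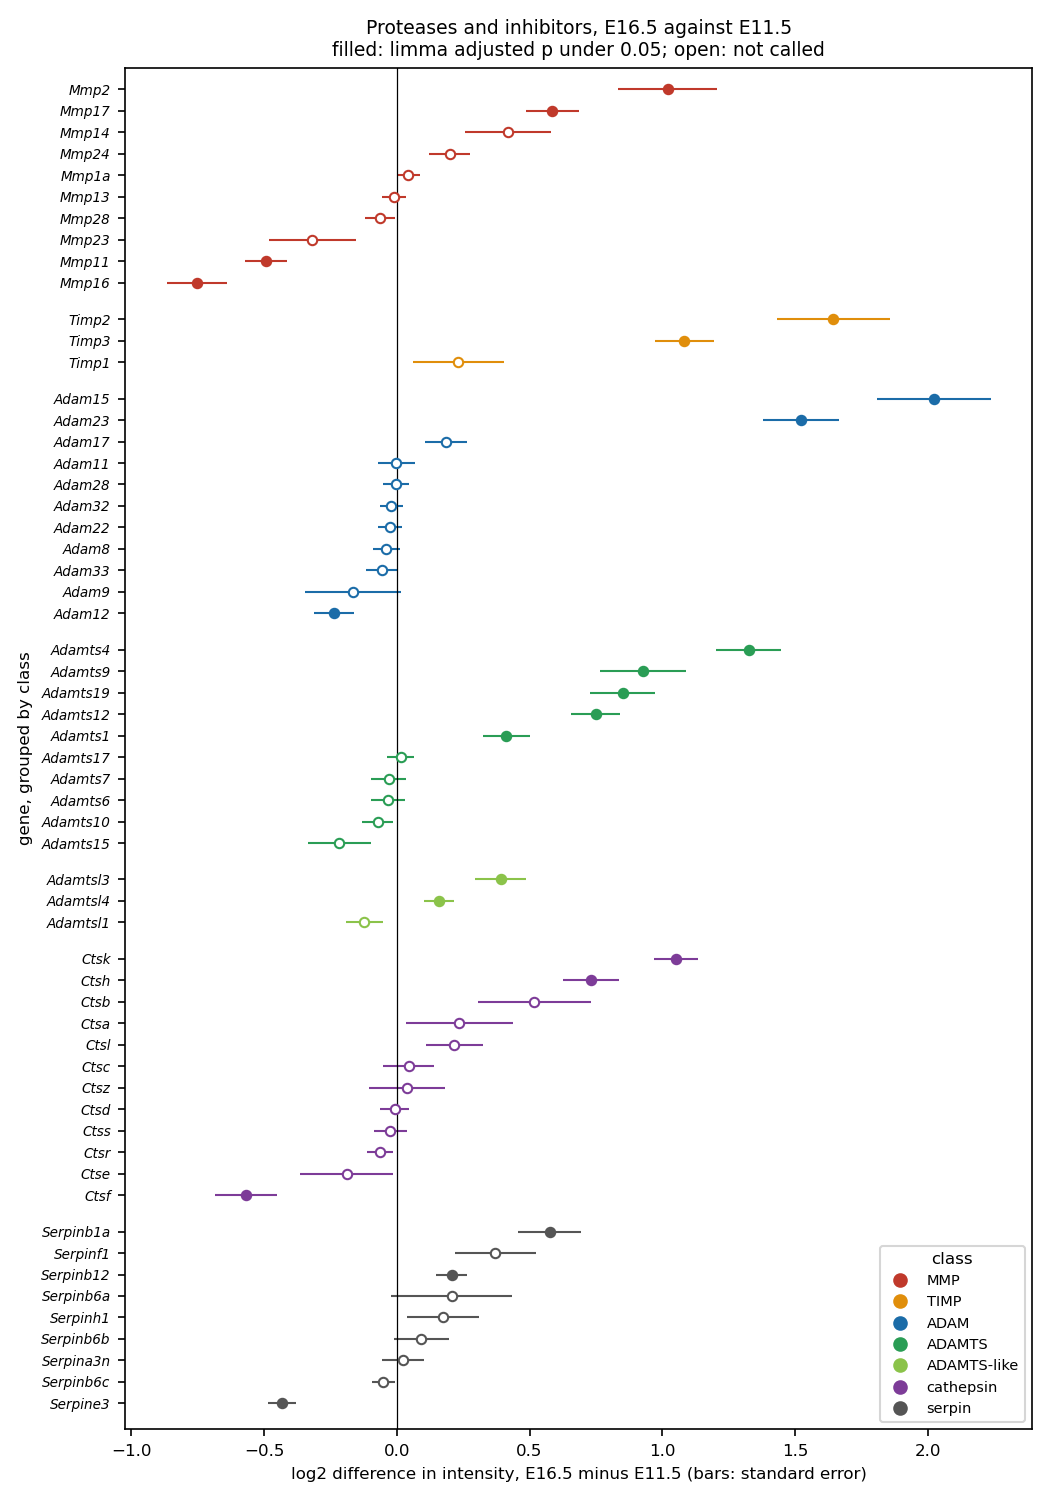
Log2 difference in intensity, E16.5 minus E11.5 (horizontal axis), for each of the 58 members grouped by class; bars are standard errors from the limma fit and filled points have an adjusted p under 0.05. The 17 filled points to the right run up to 2.02 for Adam15, and the 5 to the left reach -0.75 for Mmp16.

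Of the 10 MMPs kept from 21 on the platform, Mmp2 and Mmp17 were higher at E16.5 than at E11.5 and Mmp16 and Mmp11 were lower. These are 20% in each direction, beside 15.9% of all genes higher and 18.7% lower. Mmp2, gelatinase A, cuts denatured collagen and basement membrane collagen. Its intensities on the 3 arrays of each stage were 1114, 767 and 1242 at E11.5, 2791, 3233 and 3555 at E12.5, 2761, 4817 and 3862 at E13.5, 2248, 2398 and 2110.0 at E14.5, 2480.1, 2575 and 2666 at E15.5, and 2077, 2311 and 1846 at E16.5. The sharp step lay between E11.5 and E12.5, and every later array lay above every E11.5 array. Mmp2 was 2.03-fold higher at E16.5 than at E11.5, a log2 difference of 1.02 ± 0.19 (adjusted p = 0.00056), with standard errors throughout from the limma fit and 3 arrays per stage. The log2 difference at E13.5 against E11.5 was 1.87 ± 0.19 (adjusted p = 8.2e-06), and that at E14.5 against E13.5 was -0.72 ± 0.19 (adjusted p = 0.043). That last call did not hold throughout: E14.5 arrays (2110 to 2398) all lay below E13.5 arrays (2761 to 4817), but it was lost when replicate 1 of E11.5, replicate 2 or 3 of E12.5, replicate 2 or 3 of E13.5, replicate 1, 2 or 3 of E14.5, replicate 2 or 3 of E15.5, or replicate 2 of E16.5 (adjusted p between 0.051 and 0.21) was left out.

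Mmp14, the membrane-type enzyme that activates pro-Mmp2, read 2475, 3281 and 3786 at E16.5 and 2169, 2406 and 2466 at E11.5. The lowest E16.5 array lay just above the highest E11.5 array, and the log2 difference of 0.42 ± 0.16 (adjusted p = 0.059) did not pass the threshold. It passed under other settings, such as cyclic loess scaling (adjusted p = 0.031), array weights (0.0022) and without replicate 1 of E15.5 and E16.5 (0.0078). Its stage means differed in the 6-stage test (adjusted p = 0.027).

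The other membrane-type enzymes did not share a course. Mmp16, which can also activate pro-Mmp2, read 155, 178 and 184 at E16.5 and 284, 260.3 and 328 at E11.5, and every E16.5 array lay below every E11.5 array. The log2 difference was -0.75 ± 0.11 (adjusted p = 0.00012), and a dimmer second probe gave -0.23 (adjusted p = 0.039). Mmp17, held on the membrane by a lipid anchor, read 169, 192 and 217 at E16.5 and 135, 118 and 131 at E11.5, without overlap. Its log2 difference was 0.59 ± 0.10 (adjusted p = 0.00029). Mmp24 read 189, 196 and 211 at E16.5 and 176, 175 and 168 at E11.5. These arrays did not overlap either, but its log2 difference of 0.20 ± 0.08 (adjusted p = 0.059) missed the threshold. Mmp24 passed it under other settings, such as cyclic loess scaling (adjusted p = 0.012) and array weights (0.01).

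Mmp11, or stromelysin-3, is an MMP that is activated inside the cell by furin and cuts few classical matrix proteins. It read 121, 122 and 123 at E16.5 and 174, 171 and 170.5 at E11.5. The E16.5 arrays lay close together and all below E11.5, with a log2 difference of -0.49 ± 0.08 (adjusted p = 0.00021). Most of the drop came late, with a log2 difference of -0.36 ± 0.08 (adjusted p = 0.0073) at E16.5 against E14.5. Mmp23, an MMP with an unusual domain order, read 728, 886 and 933 at E16.5 and 1106, 938 and 1126 at E11.5, a log2 difference of -0.32 ± 0.16 (adjusted p = 0.16), although its 6 stage means differed (adjusted p = 0.0064). The remaining members, Mmp28 (epilysin), Mmp1a and Mmp13 (both collagenases), stayed between 101 and 131 intensity units on all arrays, near the floor, and were called in none of the comparisons.

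Of the 4 TIMPs on the platform 3 were kept, and all 3 differed among the stages, beside 40.8% of all genes. The promoters of the 3 TIMPs and of Mmp14 are shown because these genes form the activation and inhibition set around Mmp2. The windows run from 250 bases before to 50 after the annotated start in RefSeq (GRCm38.p6), at chr14:54431348-54431647 on the plus strand for Mmp14, chrX:20869916-20870215 on the plus strand for Timp1, chr11:118355362-118355661 on the minus strand for Timp2 and chr10:86300162-86300461 on the plus strand for Timp3, each 5′ to 3′ on the gene's strand. Capitals mark a GC box (GGGCGG on either strand), the motif of Sp1-like factors.
Mmp14: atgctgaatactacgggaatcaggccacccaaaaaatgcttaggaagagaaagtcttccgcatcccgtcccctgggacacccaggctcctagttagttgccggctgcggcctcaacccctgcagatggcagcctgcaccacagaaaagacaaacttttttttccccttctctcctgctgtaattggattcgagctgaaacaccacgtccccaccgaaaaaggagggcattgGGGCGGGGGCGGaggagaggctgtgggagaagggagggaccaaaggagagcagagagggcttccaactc
Timp1: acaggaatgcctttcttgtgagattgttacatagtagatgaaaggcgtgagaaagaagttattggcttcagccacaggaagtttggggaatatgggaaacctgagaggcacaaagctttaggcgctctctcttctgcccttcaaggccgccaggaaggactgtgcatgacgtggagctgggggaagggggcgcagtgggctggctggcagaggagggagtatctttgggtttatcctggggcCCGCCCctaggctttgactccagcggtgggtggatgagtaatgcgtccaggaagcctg
Timp2: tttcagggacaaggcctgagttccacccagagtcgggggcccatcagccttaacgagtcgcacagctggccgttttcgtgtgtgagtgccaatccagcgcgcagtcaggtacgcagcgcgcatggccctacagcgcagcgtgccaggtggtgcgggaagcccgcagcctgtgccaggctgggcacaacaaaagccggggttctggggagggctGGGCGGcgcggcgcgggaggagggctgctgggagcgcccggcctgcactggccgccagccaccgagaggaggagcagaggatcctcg
Timp3: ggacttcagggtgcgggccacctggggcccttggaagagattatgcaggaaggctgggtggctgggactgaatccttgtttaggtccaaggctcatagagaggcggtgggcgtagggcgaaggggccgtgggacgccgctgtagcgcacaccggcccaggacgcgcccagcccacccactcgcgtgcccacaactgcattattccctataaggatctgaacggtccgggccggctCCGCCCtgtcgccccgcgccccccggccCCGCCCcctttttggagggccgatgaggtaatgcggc
All 4 windows hold a GC box, which occurs in 24 of the 38 members with a RefSeq window (63.2%) and in 38.2% of 27025 windows in all. The members had passed the background filter, and the 27025 windows were not limited to such genes, so these shares do not compare like with like. Each of the 4 windows also had a GC content above the median of 52.7% over all windows, and its part was not tested. Among members called between E16.5 and E11.5 the share was 64.3% (9 of 14), close to that of all members. None of the 4 windows holds the exact letters of an AP-1 site (TGANTCA) or a TATA box (TATAAA) on either strand. Those exact letters occur in 7.89% and 15.8% of members' windows, and in 8.97% and 15.7% of all windows. Sites that depart from them were not searched for, so their absence was not shown. A match of letters is a description and not a binding site.

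Timp2, the partner of Mmp14 in pro-Mmp2 activation, read 437, 452 and 586 at E11.5, 734, 750.3 and 863 at E12.5, 786, 1279 and 1191 at E13.5, 548, 611 and 599.9 at E14.5, 745, 1312 and 909.6 at E15.5, and 1235, 1565 and 1833 at E16.5. It was high at E13.5, lower on every E14.5 array, and high again on every E16.5 array. At E16.5 it was 3.13-fold higher than at E11.5, a log2 difference of 1.64 ± 0.21 (adjusted p = 2.5e-05). The steps were 1.12 ± 0.21 (adjusted p = 0.0019) at E13.5 against E11.5, -0.86 ± 0.21 (adjusted p = 0.037) at E14.5 against E13.5 and 1.38 ± 0.21 (adjusted p = 0.00065) at E16.5 against E14.5. The middle one was lost without replicate 2 of E12.5, replicate 2 or 3 of E13.5, or replicate 1, 2 or 3 of E14.5 (adjusted p between 0.05 and 0.18).

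Timp3 read 771, 634 and 757 at E11.5, 966, 1038 and 1050.3 at E12.5, 1179, 1398 and 1339 at E13.5, 1357, 1425 and 1110.1 at E14.5, 1234, 1525 and 1345 at E15.5, and 1368, 1554 and 1651 at E16.5. All E16.5 arrays lay above all E11.5 arrays, and the gain was made by E13.5. Timp3 was 2.12-fold higher at E16.5, with log2 differences of 1.08 ± 0.11 (adjusted p = 3.1e-06) against E11.5, 0.86 ± 0.11 (adjusted p = 8.8e-05) at E13.5 against E11.5, and 0.24 ± 0.11 (adjusted p = 0.17) at E16.5 against E14.5. Its 2 dimmer probes gave 0.20 (adjusted p = 0.0053) and 0.01 (adjusted p = 0.98) for E16.5 against E11.5. For E13.5 against E11.5 they gave 0.003 (adjusted p = 0.98) and 0.11 (adjusted p = 0.7), so the early rise was called on the brightest probe only.

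Timp1, a soluble inhibitor, read 739.6, 713 and 734 at E11.5, 597, 753 and 818 at E12.5, 617, 438 and 396 at E13.5, 511, 479.5 and 561 at E14.5, 556, 748 and 612 at E15.5, and 685, 994 and 919 at E16.5. Here the middle stages were low: at E13.5 and E14.5 every array but replicate 1 of E13.5 lay below every E12.5 array, and E16.5 overlapped E11.5. The log2 difference of E16.5 against E11.5 was 0.23 ± 0.17 (adjusted p = 0.34). Timp1 fell in the early window, with -0.62 ± 0.17 (adjusted p = 0.022) at E13.5 against E11.5, and rose in the late one, with 0.73 ± 0.17 (adjusted p = 0.0098) at E16.5 against E14.5. A second Timp1 probe gave -0.73 (adjusted p = 0.02) and 0.73 (adjusted p = 0.021) for these windows. The early call was lost without replicate 1, 2 or 3 of E11.5 or replicate 2 or 3 of E13.5 (adjusted p between 0.056 and 0.11), and the late one without replicate 2 of E16.5 (adjusted p = 0.05).

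**Figure D3:**
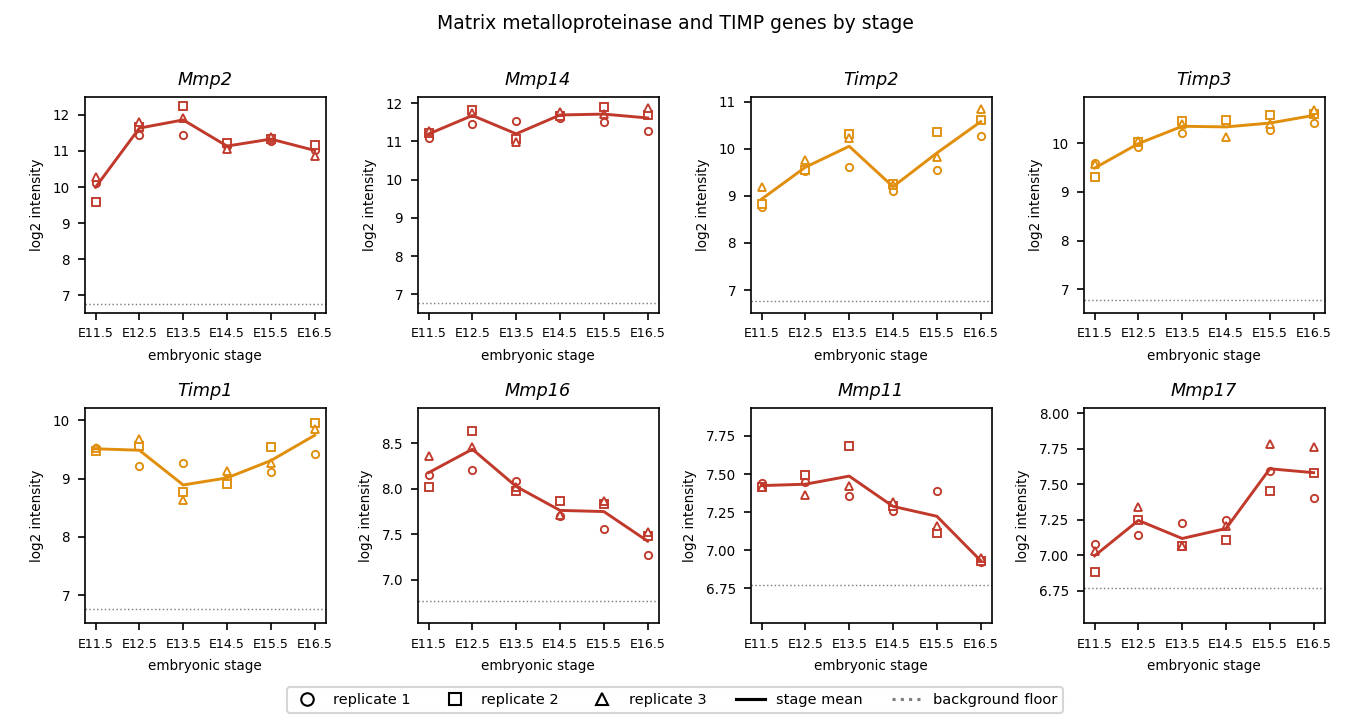
Log2 intensity (vertical axes, each panel on its own scale) by embryonic stage for 5 MMPs and the 3 TIMPs; symbols are replicates 1 to 3, lines are stage means and the dotted line is the background floor. Mmp2 steps up after E11.5, Timp2 dips at E14.5, and Timp1 is low at E13.5 and E14.5, while Timp3 is higher on all E16.5 arrays than on all E11.5 arrays.

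Among the ADAMTS family, 10 of 17 genes were kept, and 5 of the 10 were higher at E16.5 than at E11.5, with none lower by limma (none at an unadjusted p under 0.05 either). The 5 higher genes are 50% of the 10, beside 15.9% of all genes higher and 18.7% lower. The median log2 difference of these 10 was 0.21. Adamts4, which cuts aggrecan and versican, read 275, 292 and 286 at E16.5 and 111, 112 and 117 at E11.5. The E11.5 arrays lay just above the floor and E16.5 lay well clear of them, with a log2 difference of 1.32 ± 0.12 (adjusted p = 1.1e-06). Adamts9, also a versican-cutting enzyme, read 398, 503 and 400.0 at E11.5, 320.1, 342 and 327 at E12.5, 397, 281 and 295 at E13.5, 439, 451 and 437 at E14.5, 499.9, 846 and 653 at E15.5, and 755, 809 and 900.3 at E16.5. It was lowest at E12.5 and E13.5 and highest at E16.5, without overlap between E16.5 and E11.5. The log2 differences were 0.93 ± 0.16 (adjusted p = 0.00039) for E16.5 against E11.5 and 0.89 ± 0.16 (adjusted p = 0.002) for E16.5 against E14.5, and a dimmer probe gave 0.27 (adjusted p = 0.0016) and 0.27 (adjusted p = 0.006).

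Adamts12, which cuts cartilage oligomeric matrix protein, read 529, 508 and 525 at E16.5 and 307, 312 and 311 at E11.5, a log2 difference of 0.75 ± 0.09 (adjusted p = 1.6e-05). Adamts19, known for its role in heart valves, read 264, 247 and 205 at E16.5 and 133, 136 and 127 at E11.5, a log2 difference of 0.85 ± 0.12 (adjusted p = 8e-05). Neither gene's arrays overlapped between the stages, and Adamts19 had its rise by E14.5 (242, 259 and 224). Adamts1, another versican-cutting enzyme, read 187, 186 and 166 at E16.5 and 129, 131 and 145 at E11.5. Its log2 difference was 0.41 ± 0.09 (adjusted p = 0.002), without overlap, and its 2 dimmer probes gave 0.14 (adjusted p = 0.095) and 0.23 (adjusted p = 0.044). Adamts15, of the same versican-cutting group, read 149, 142 and 139 at E11.5, 169.9, 196 and 246 at E12.5, 204, 165 and 161 at E13.5, 163, 170.5 and 142 at E14.5, 145, 126 and 132 at E15.5, and 121, 124 and 125 at E16.5. It had its highest mean at E12.5, and its log2 difference of -0.22 ± 0.12 (adjusted p = 0.18) at E16.5 against E11.5 missed the threshold. The versican-cutting enzymes thus did not share a single course. Adamts7, Adamts10, Adamts6 and Adamts17 had log2 differences between -0.07 and 0.02 at E16.5 against E11.5 and were not called.

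Of the 3 ADAMTS-like genes kept from 4, Adamtsl3 read 162, 167 and 167 at E16.5 and 128, 122 and 129 at E11.5, and its log2 difference was 0.39 ± 0.10 (adjusted p = 0.0048). A second Adamtsl3 probe at the floor gave -0.03 (adjusted p = 0.75). Adamtsl4, which binds fibrillin microfibrils, read 124, 127 and 122 at E11.5, 112, 108 and 114 at E12.5, 107, 113 and 108 at E13.5, 110.3, 105 and 110.3 at E14.5, 122, 131 and 116 at E15.5, and 131, 136 and 151 at E16.5. It was low and near the floor on all arrays from E12.5 to E14.5. Replicate 2 of E12.5, replicates 1 and 3 of E13.5 and replicate 2 of E14.5 lay under the floor, so differences against these stages rest partly on background values. The log2 difference at E16.5 against E14.5 was 0.35 ± 0.06 (adjusted p = 0.00089) and held whichever array was left out. At E16.5 against E11.5 it was 0.16 ± 0.06 (adjusted p = 0.042), and that call was lost without replicate 1, 2 or 3 of E11.5, replicate 1 or 3 of E12.5, replicate 1 or 3 of E14.5, or replicate 2 or 3 of E16.5 (adjusted p between 0.051 and 0.2), dropping to 0.10 without replicate 3 of E16.5. Adamtsl1 was not called, with -0.12 ± 0.07 (adjusted p = 0.19).

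The ADAM family held both the largest rise of the members and many genes near background: 11 of 32 were kept, 2 were higher at E16.5 than at E11.5 and 1 was lower. These are 18.2% and 9.09% of those kept, beside 15.9% of all genes higher and 18.7% lower. Adam15, a membrane protease and integrin ligand that endothelial cells are known to make, read 123, 137 and 118 at E11.5, 156, 233 and 190.4 at E12.5, 219.5, 304 and 299 at E13.5, 291, 311 and 307 at E14.5, 293, 616 and 448 at E15.5, and 462, 588 and 486 at E16.5. Its level climbed over the course, and no E16.5 array came near the E11.5 arrays. Adam15 was 4.06-fold higher at E16.5, a log2 difference of 2.02 ± 0.22 (adjusted p = 4.2e-06). The step at E16.5 against E14.5 was 0.75 ± 0.22 (adjusted p = 0.028), and it was lost without replicate 1, 2 or 3 of E14.5 or replicate 2 or 3 of E16.5 (adjusted p between 0.064 and 0.11).

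Adam23, an integrin-binding member without protease activity, read 294, 348 and 499.5 at E16.5 and 128, 136 and 124 at E11.5. It was 2.87-fold higher at E16.5, a log2 difference of 1.52 ± 0.14 (adjusted p = 1.3e-06). Replicate 3 stood above the other E16.5 arrays: at E16.5 against E14.5 the log2 difference was 0.52 ± 0.14 (adjusted p = 0.024), and 0.30 without that array. That late call was lost without replicate 2 or 3 of E14.5 or replicate 3 of E16.5 (adjusted p between 0.072 and 0.087). The endothelial list rose over the same span, with 13 of its 14 measured markers called higher at E16.5 than at E11.5 and a median log2 difference of 3.42, and its part in the values of Adam15 and Adam23 was not tested.

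Adam12, or meltrin alpha, read 135, 122 and 134 at E16.5 and 152, 161 and 148 at E11.5 and was lower, with a log2 difference of -0.24 ± 0.07 (adjusted p = 0.022), a call lost without replicate 2 of E11.5 or replicate 2 of E16.5 (adjusted p between 0.089 and 0.1). Adam17, the sheddase of tumour necrosis factor, read 339, 353 and 387 at E16.5 and 312, 320.0 and 316 at E11.5, without overlap. Its log2 difference of 0.19 ± 0.08 (adjusted p = 0.083) missed the threshold. Adam17 passed it under other settings, such as cyclic loess scaling (adjusted p = 0.021) and array weights (0.029). Adam33 was under the floor on every E14.5 array (98, 102 and 99) and read 116, 126 and 133 at E13.5, so its level was lower by at least 1.14-fold at E14.5 (adjusted p = 0.011), a call lost without replicate 2 of E13.5 or replicate 1 or 3 of E14.5 (adjusted p between 0.052 and 0.06). Adam9 read 207, 138 and 137 at E16.5 and 219.8, 159.8 and 158 at E11.5, and replicate 1 was the brightest array of Adam9 at every one of the 6 stages. The other 5 members, Adam8, Adam11, Adam22, Adam28 and Adam32, stayed between 96 and 116 intensity units.

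Of the 12 cathepsins kept from 18, 2 were higher at E16.5 than at E11.5 and 1 was lower. These are 16.7% and 8.33%, beside 15.9% of all genes higher and 18.7% lower. Ctsk, the collagen-cutting cathepsin best known from osteoclasts, read 114, 105 and 118 at E11.5, 125, 131 and 146 at E12.5, 201, 206 and 174 at E13.5, 211, 189 and 191 at E14.5, 239, 242 and 277 at E15.5, and 237, 241 and 220.4 at E16.5. Ctsk lay near the floor at E11.5, read higher on every E13.5 and E14.5 array, and higher again on every E15.5 and E16.5 array. It was 2.07-fold higher at E16.5, a log2 difference of 1.05 ± 0.08 (adjusted p = 2.4e-07). Ctsh, a lysosomal aminopeptidase, read 189, 238 and 234 at E16.5 and 135, 129 and 132 at E11.5, without overlap. Its log2 difference was 0.73 ± 0.11 (adjusted p = 8.2e-05), and a second probe gave 0.46 (adjusted p = 0.00012).

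Ctsf, a lysosomal cysteine protease, went the other way. It read 246, 237 and 243 at E11.5, 238, 327 and 278 at E12.5, 225, 288 and 268 at E13.5, 175, 184 and 165 at E14.5, 174, 172 and 175 at E15.5, and 142, 161 and 189.6 at E16.5. The drop lay between E13.5 and E14.5, with no overlap. The log2 differences were -0.57 ± 0.12 (adjusted p = 0.0013) for E16.5 against E11.5 and -0.57 ± 0.12 (adjusted p = 0.018) for E14.5 against E13.5, and the call between E14.5 and E13.5 was lost without replicate 2 or 3 of E13.5 or replicate 1 or 3 of E14.5 (adjusted p between 0.058 and 0.11). Ctsb, a lysosomal cysteine protease, read 1575, 1085 and 1163 at E16.5 and 1061, 741 and 861 at E11.5. Replicate 1 was its brightest array at all 6 stages. The log2 difference of 0.52 ± 0.21 (adjusted p = 0.076) missed the threshold, and with the replicate number as a block it passed (adjusted p = 0.00014).

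Ctse, an aspartic protease, read 478, 476 and 496 at E11.5, 781, 557 and 602 at E12.5, 609.9, 361 and 398 at E13.5, 339, 311 and 311 at E14.5, 413, 534 and 529 at E15.5, and 498, 411 and 372 at E16.5. It differed among the 6 stages (adjusted p = 0.0073) with no call between E16.5 and E11.5, where the log2 difference was -0.19 ± 0.18 (adjusted p = 0.46). Ctsa, a carboxypeptidase that protects lysosomal galactosidase, read 214, 286 and 349.9 at E16.5 and 166, 181 and 161 at E14.5, a log2 difference of 0.72 ± 0.20 (adjusted p = 0.025). That call was lost without replicate 1, 2 or 3 of E14.5 or replicate 2 or 3 of E16.5 (adjusted p between 0.052 and 0.12), and the next brightest of its 5 kept probes gave -0.10 (adjusted p = 0.49). Ctsz and Ctsl had log2 differences of 0.04 ± 0.14 and 0.22 ± 0.11 at E16.5 against E11.5, and neither was called. Ctsc, Ctsd, Ctsr and Ctss were not called in any comparison.

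Of the 55 serpins on the platform only 9 were kept, and 2 were higher at E16.5 than at E11.5 and 1 was lower. These are 22.2% and 11.1% of those kept, beside 15.9% of all genes higher and 18.7% lower. Serpinb1a, an inhibitor of neutrophil elastase, read 140.1, 155 and 212 at E16.5 and 108, 106 and 122 at E11.5, without overlap, a log2 difference of 0.58 ± 0.12 (adjusted p = 0.0015). Replicates 1 and 2 of E11.5 and of E14.5 lay under the floor, so the size of its differences against these stages rests partly on background values. No E11.5 array of Serpinb12 passed the floor (108, 116 and 123 at E16.5 and 100.5, 98 and 102 at E11.5), nor did replicate 1 of E16.5. Its E16.5 stage mean was higher by at least 1.06-fold (adjusted p = 0.013), a call lost without replicate 3 of E16.5 (adjusted p = 0.069). Serpine3 was above the floor only at E11.5, where it read 131, 147 and 127, and its E16.5 level (99, 102 and 98) was lower by at least 1.23-fold (adjusted p = 1.4e-05). Serpine3 passed the background filter through E11.5 alone, and Serpinb12 through arrays of E15.5 and E16.5.

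Serpinh1, the chaperone that collagen needs to fold, read 10390.3, 11356 and 14111 at E16.5 and 9957, 10763 and 10846 at E11.5. These ranges overlapped, and the log2 difference was 0.17 ± 0.14 (adjusted p = 0.37). Serpinf1 read 1063, 1457 and 1223 at E16.5 and 943, 1052 and 882 at E11.5, with 0.37 ± 0.15 (adjusted p = 0.075). Its E16.5 arrays all lay above its E11.5 arrays, although the difference missed the threshold. Serpinb6a, an intracellular inhibitor of serine proteases, read 1652, 1739 and 1816 at E11.5, 1291, 1583 and 1545 at E12.5, 1797, 819 and 942 at E13.5, 1247, 1228 and 1524 at E14.5, 1744, 2217 and 2095 at E15.5, and 1604, 2041 and 2445 at E16.5. At E13.5 replicate 1 read about like E11.5 and the other arrays far below. Its difference between E16.5 and E11.5 was 0.21 ± 0.23 (adjusted p = 0.54). Serpinb6a, Serpinb6b and Serpinb6c are close relatives, and how well their probes tell them apart was not tested. Serpina3n, of the antichymotrypsin family, was under the floor at E11.5 and at least 1.09-fold higher at E13.5 (adjusted p = 0.026), lost without replicate 1 or 2 of E11.5 or replicate 2 of E13.5 (adjusted p between 0.061 and 0.12).

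**Figure D4:**
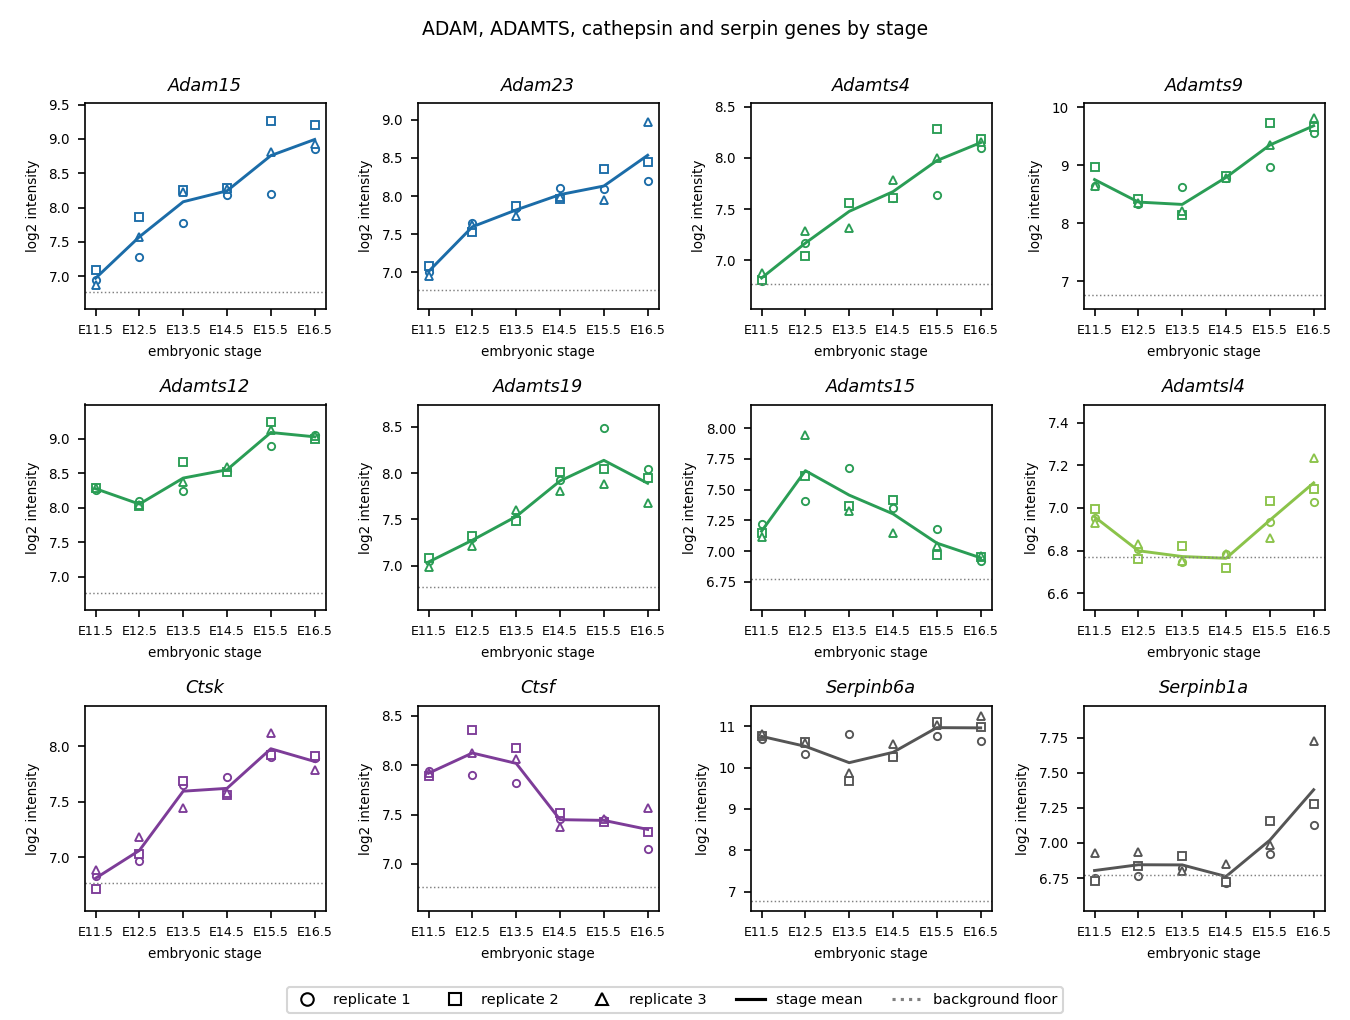
Log2 intensity (vertical axes, each panel on its own scale) by embryonic stage for 12 ADAM, ADAMTS, ADAMTS-like, cathepsin and serpin genes; symbols are replicates 1 to 3, lines are stage means and the dotted line is the background floor. Adam15, Adam23, Adamts4 and Ctsk start near the floor at E11.5, Ctsf drops at E14.5, and Adamts9 and Adamtsl4 are higher at E16.5 than at E13.5 or E14.5.

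The course was also divided into an early window from E11.5 to E13.5, the day between E13.5 and E14.5, and a late window from E14.5 to E16.5, so the middle step is shorter than the other two. At E13.5 against E11.5, 10 members were higher (17.2%, beside 8.57% of all genes) and 3 were lower (5.17%, beside 8.74%). The largest early rises were those of Mmp2, Timp2, Adam15, Timp3 and Adam23, whose log2 differences were 1.87, 1.12, 1.11, 0.86 and 0.81, with adjusted p-values between 8.2e-06 and 0.0023. Ctsk, Adamts4, Adamts19, Ctsh and Serpina3n completed the 10. Timp1, Serpine3 and Adamtsl4 fell, the last with a log2 difference of -0.19 ± 0.06 (adjusted p = 0.036), a call lost without any 1 of the 6 arrays compared. Ctsh was also lost without any 1 of these 6 arrays, and Adamts19 without replicate 3 of E13.5 (adjusted p = 0.053). The 3 lower members became 1 without any single array of E11.5 or without replicate 2 or 3 of E13.5, and 5 without replicate 1 of E13.5. In the same window 13 of 14 endothelial markers were called higher, with a median log2 difference of 2.31, and so were 5 of 11 fibroblast markers, with a median of 0.62. Of the 14 epicardial markers 7 were called lower and 2 higher, with a median of -0.70. The part of these lists in the early changes was not tested.

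At E14.5 against E13.5 limma called no member higher, with 3 higher at an unadjusted p under 0.05, and 1.87% of all genes higher. It called 4 members lower (6.9%, beside 2.70% of all genes lower and 4.57% in either direction): Timp2, Mmp2, Ctsf and Adam33. None of the 4 calls held under the omission of every single array. The count of 4 rested on single arrays in both directions: it was 12 without replicate 1 of E13.5 and 7 without replicate 1 of E15.5, 1 or 2 without replicate 2 of E12.5, replicate 3 of E13.5 or replicate 2 of E14.5, and 0 without replicate 2 of E13.5 or replicate 1 or 3 of E14.5. Without the 3 arrays that stood apart it was 14, and with array weights 13. The cardiomyocyte list averaged 10.53 to 10.71 at E14.5 and 9.09 to 10.07 at E13.5 (log2), and its part was not tested.

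At E16.5 against E14.5, 13 members were higher (22.4%, beside 9.87% of all genes) and 1, Mmp11, was lower (1.72%, beside 7.84%). The median log2 difference was 0.09 over members and -0.01 over all genes. Timp2, Adamts9, Adam15, Timp1 and Ctsa had the largest rises, with log2 differences of 1.38, 0.89, 0.75, 0.73 and 0.72. Serpinb1a, Adam23, Adamts4, Adamts12, Adamtsl3, Mmp17, Adamtsl4 and Adam33 were the other 8. Adamts4 lost its late call without replicate 1 or 2 of E14.5 or replicate 2 or 3 of E16.5 (adjusted p between 0.052 and 0.061), Mmp17 without replicate 2 of E14.5 or replicate 3 of E16.5 (adjusted p between 0.063 and 0.076), and Adam33, barely above the floor, without any of 11 arrays. Without replicate 2 or 3 of E16.5 the count of 13 fell to 8 or 7, and without replicate 2 of E14.5 it was 7. Without the 3 arrays that stood apart it was 23. The 1 lower member became 2 or 3 without replicate 3 of E11.5, any single array of E12.5, or replicate 1 of E13.5, 3 of E14.5 or 1 of E15.5. The epicardial list rose in the same window, with 11 of 14 markers called higher and a median log2 difference of 1.07, and 12 of 14 endothelial and 4 of 5 leukocyte markers were called higher. Of 10 smooth muscle markers 5 were called lower and 1 higher. Of 11 fibroblast markers 6 were called higher and 1 lower, with a median of 0.67. Of 16 cardiomyocyte markers 1 was called lower and none higher, with a median of -0.90. By limma at an unadjusted p under 0.05, 7 of these 16 were lower and 0 higher. Of 8 erythroid markers 3 were called higher and 1 lower. The part of these lists in the late changes was not tested.

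Whether a gene changed differently in the 2 windows was tested directly, as the E16.5 minus E14.5 difference less the E13.5 minus E11.5 difference. It called 12 members (20.7%, beside 13.0% of all genes), 6 in each direction (10.3% each, beside 6.75% positive and 6.28% negative among all genes). For 2 of the 12, Serpine3 and Serpina3n, stages in the contrast lay under the floor on all arrays, so their contrasts have no measured size. Mmp2 had the largest contrast, at -1.99 ± 0.26 (adjusted p = 2e-04), with a called rise in the early window and none in the late one. Timp1 had 1.35 ± 0.24 (adjusted p = 0.0019) and Adamts9 1.32 ± 0.23 (adjusted p = 0.0015), both with their called rise in the late window. Serpinb6a had 1.23 ± 0.32 (adjusted p = 0.02), and Adamts15 had -0.65 ± 0.17 (adjusted p = 0.018). The Serpinb6a contrast was lost without replicate 3 of E13.5, replicate 2 of E14.5, or replicate 3 of E16.5 (adjusted p between 0.052 and 0.057), and that of Adamts15 without replicate 2 of E14.5 (adjusted p = 0.053). A second Serpinb6a probe near the floor gave 0.01 (adjusted p = 0.94). Timp2 and Adam15 rose in both windows, and their contrasts of 0.26 ± 0.30 (adjusted p = 0.65) and -0.37 ± 0.30 (adjusted p = 0.5) were not called.

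**Figure D5:**
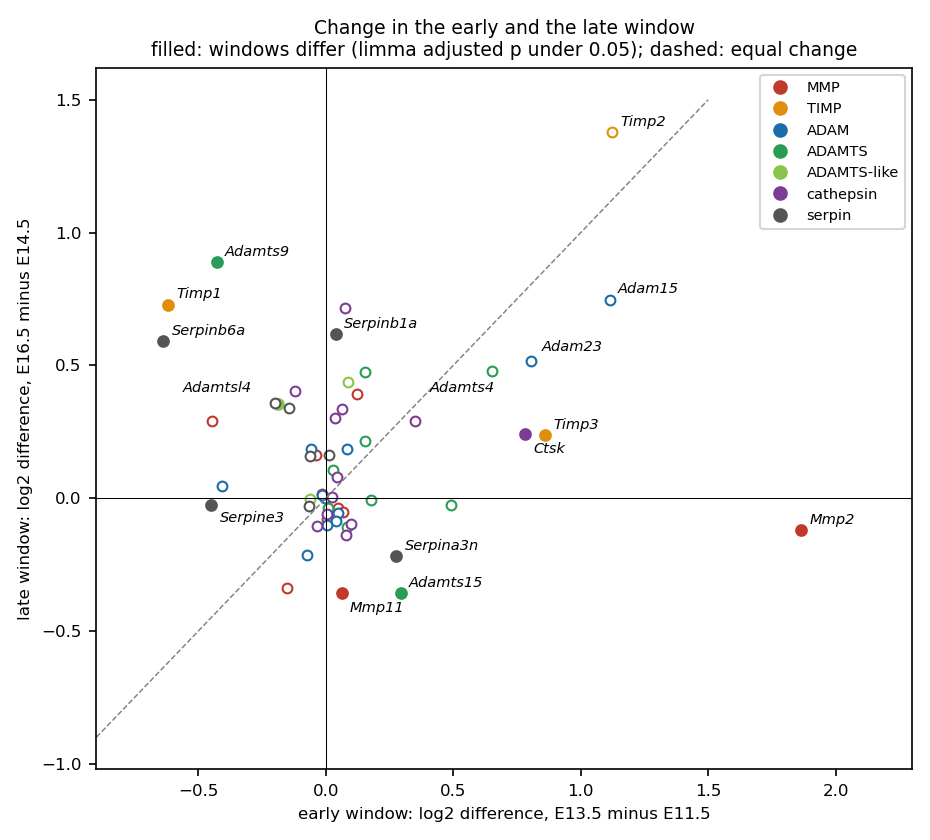
Log2 difference in the late window (E16.5 minus E14.5, vertical axis) against that in the early window (E13.5 minus E11.5, horizontal axis) for the 58 members, coloured by class; filled points differ between windows (adjusted p under 0.05) and the dashed line marks equal change; the points of Serpine3 and Serpina3n, set against stages under the background floor, show no measured size. Mmp2 lies far to the right near a late difference of -0.12, Timp1 and Adamts9 lie upper left, and Timp2 lies upper right.

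The stage at which a member was highest was unevenly spread. Among the 32 members that differed among stages, the highest stage mean was at E11.5 for 1, E12.5 for 5, E13.5 for 5, E14.5 for 0, E15.5 for 11 and E16.5 for 10. At E11.5 these are 3.12% of the called members, beside 27.8% of all genes called by the same test, and at E15.5 they are 34.4%, beside 6.38%. The shares lay closer together at E12.5 (15.6%, beside 16.3%), E13.5 (15.6%, beside 11.8%) and E16.5 (31.2%, beside 27.9%), and at E14.5 no member stood beside 9.83% of all genes. Adjacent stages often differed by less than the spread between arrays, as for Adamts12, which read 529, 508 and 525 at E16.5 and 476, 605 and 559 at E15.5. The E15.5 mean also includes the array that stood apart.

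Other genes of the same pathways were counted from lists chosen with earlier results of these data known. Of 20 measured activators and other proteases (30 listed), 9 were higher and 5 lower at E16.5 than at E11.5, with a median log2 difference of 0.25, beside -0.03 over all genes. Among all genes, 15.9% were higher and 18.7% lower. Htra1 and Htra3, secreted serine proteases, had log2 differences of 1.35 ± 0.12 (adjusted p = 5.4e-07) and 1.83 ± 0.16 (adjusted p = 6.7e-07). The urokinase gene Plau and its receptor gene Plaur, which bring plasmin activity to the cell surface, had log2 differences of 0.33 ± 0.09 (adjusted p = 0.007) and 0.44 ± 0.09 (adjusted p = 0.0019). Furin, which cuts the propeptide of membrane-type MMPs, was higher, with a log2 difference of 0.51 ± 0.15 (adjusted p = 0.017). Prss35 was lower, at -1.25 ± 0.23 (adjusted p = 0.00069).

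Of 14 measured inhibitors outside the member families (26 listed), 6 were higher at E16.5 than at E11.5 and none was lower by limma (none at an unadjusted p under 0.05 either). Among all genes, 15.9% were higher and 18.7% lower. Papln, papilin, a matrix protein related to the ADAMTS family, was higher, with a log2 difference of 1.09 ± 0.14 (adjusted p = 3.4e-05). In the late window 11 of the 14 were higher, with a median log2 difference of 0.32, and none was lower by limma (none at an unadjusted p under 0.05). In that window 9.87% of all genes were higher and 7.84% lower. In the early window limma called none in either direction, with 0 higher and 2 lower at an unadjusted p under 0.05. Reck, a membrane-anchored MMP inhibitor, was not called, with -0.01 ± 0.16 (adjusted p = 0.99).

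Of 20 measured substrates (24 listed), 16 were higher at E16.5 than at E11.5 and 1 was lower, with a median log2 difference of 0.89. Among all genes, 15.9% were higher and 18.7% lower. On the log2 scale, Eln (elastin) was higher by 2.77 ± 0.19 (adjusted p = 7.5e-08), Col1a1 by 1.83 ± 0.33 (adjusted p = 0.00047), Hspg2 (perlecan) by 1.74 ± 0.23 (adjusted p = 2.7e-05), Col4a2 by 1.62 ± 0.27 (adjusted p = 0.00024) and Col5a1 by 1.58 ± 0.09 (adjusted p = 1.3e-08). Fn1, fibronectin, was lower, at -1.63 ± 0.34 (adjusted p = 0.0018). Vcan, the versican that several ADAMTS members cut, had a log2 difference of -0.20 ± 0.08 (adjusted p = 0.057) and was not called. Of the fibroblast markers, 10 of 11 measured were called higher at E16.5 than at E11.5, with a median of 1.22, and 5 of those 11 are also substrates in this list.

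Of the 93 genes that were not kept, 68 were above the floor on no array, 16 on 1 array and 9 on 2. They include Mmp9 (gelatinase B), Mmp3, Mmp7, Mmp8, Mmp10, Mmp12, Timp4, Adam10 and most of the serpins. For the 68, no level above background was measured with these probes, which gives only a bound. Just inside the limit of 3 arrays lay Adam11, Adam28, Mmp13, Serpinb12 and Serpine3, whose brightest arrays read 116, 114, 113, 123 and 147. Just outside lay 9 genes with 2 arrays above the floor, Adamts16 and Mmp19 among them, whose brightest arrays read 109.7 to 122.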

How the data were processed

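Per the labels' protocols, 200 ng of total RNA per sample was amplified to biotinylated cRNA for Illumina bead arrays. GenomeStudio 2011.1 is named in the submitters' processing notes, and the sources used here do not give its normalization or background steps. The values used are the authors' deposited probe intensities on a linear scale (83.8 to 17358, median 104). The sorted values of the 18 columns differ by at most 2.04 units, as quantile normalization leaves them. A second table has 36 columns (18 signals and 18 detection p-values) whose names match no label, and it was not used.

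Intensities were taken to log2. The background floor was the mode of all values plus the normal 99% point of the spread below it (109 units, 37.2% of values above it). A probe was kept above the floor on 3 or more arrays (20010 of 45281), named where the annotation gave 1 symbol (34885 probes, with 18 naming several and 10378 none), and each gene took its kept probe with the highest mean. limma 3.58.1 (R 4.3.3) was fitted to all 10834 genes with 1 mean per stage and 12 residual degrees of freedom, with Benjamini-Hochberg adjustment over all genes, calling an adjusted p under 0.05. The precision rests on 3 arrays per stage. The fit was also run on simulated arrays with independent noise for each gene and array. These lack the deviations that same-numbered arrays share (below), so that run did not test the calls under such sharing. A gene under the floor on all arrays of a stage is given as a bound against the floor.

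The members and lists were chosen with earlier results of these data known. Genes named by rule are all kept MMPs and TIMPs, members changed at least 2-fold between E16.5 and E11.5, the 5 largest called rises and falls per window, the 5 largest contrasts between windows, the 2 members of each class with the highest mean, and called list genes of at least 2-fold, up to 5 per direction. Members outside the rule were named after their values were seen, and so were the list genes Plau, Plaur, Furin, Reck and Vcan. Arrays share replicate numbers across stages. Deviations from the stage mean correlated between same-numbered arrays by 0.21 to 0.29 for E16.5 and E11.5, which meets the limit of 0.1 for every pair, but by 0.02 to 0.27 for E13.5 and E11.5, -0.02 to 0.40 for E14.5 and E13.5 and 0.06 to 0.34 for E16.5 and E14.5. The block is therefore an alternative. Promoter windows and motif counts came from RefSeq.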

Additional observations from a re-analysis of the deposited data

Results flagged for a closer look

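For 12 members, a test of the difference itself found that the late window (E16.5 minus E14.5) and the early window (E13.5 minus E11.5) differed, by limma at an adjusted p under 0.05. The values below are late minus early differences on the log2 scale, each from 3 arrays per stage. They were positive for Timp1 (1.35), Adamts9 (1.32), Serpinb6a (1.23), Serpinb1a (0.58) and Adamtsl4 (0.54). For Serpinb1a and Adamtsl4, some arrays of the stages in the contrast lay under the floor, so these sizes rest partly on background values. Timp1 and Adamtsl4 fell early and rose late, Adamts9 and Serpinb1a were called only late, and Serpinb6a was called in neither window alone.

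They were negative for Mmp2 (-1.99), Adamts15 (-0.65), Timp3 (-0.62), Ctsk (-0.54) and Mmp11 (-0.42). For Timp3 this was the brightest probe, and its 2 dimmer probes gave 0.02 (adjusted p = 0.91) and -0.08 (adjusted p = 0.88) by limma. Mmp2, Timp3 and Ctsk were called as early rises, Mmp11 as a late fall, and Adamts15 in neither window alone. The other two contrasts have no measured size, because they are taken against probes under the background floor. Serpine3 (0.42 in the fit) was under the floor on all E13.5, E14.5 and E16.5 arrays, and its contrast restates the early difference, a level at E13.5 at least 1.23-fold lower than at E11.5. Serpina3n (-0.49 in the fit) passed the floor on no array of E16.5 or E11.5. The Serpinb1a contrast was lost without replicate 1 or 3 of E11.5, replicate 3 of E13.5, or replicate 1 or 2 of E14.5 (adjusted p between 0.052 and 0.085), and that of Mmp11 without replicate 3 of E14.5 (adjusted p = 0.055). Without the 3 arrays that stood apart, all 12 were called again in the same direction, and Serpinb6a and Timp1 had contrasts of 1.73 (adjusted p = 1e-05) and 1.70 (adjusted p = 1.7e-05).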

How the results depend on the processing

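For the 32 members named by rule, each setting was run between E16.5 and E11.5 where the member was still kept. None that was called in the main fit or the setting reversed. A change of sign in a member called in neither was not counted as a reversal. Of the 16 among the 32 that were called, 15 were called in every setting that kept them, and the exception was Adamtsl4. Over 984 pairs of member and setting, a call was lost in 10, all of Adamtsl4, and gained in 29. The gains were those of Adam17, Adamts15, Ctsa, Ctsb, Ctse, Mmp14, Mmp23, Mmp24, Serpinb6a and Timp1, which the main fit did not call. Of all 22 members called there, 19 were called whichever array was left out (not Adam12, Adamtsl4 and Serpinb12), beside 8 of 13 at E13.5 against E11.5, 0 of 4 at E14.5 against E13.5, 7 of 14 at E16.5 against E14.5 and 8 of 12 for late minus early. With 1 array left out in turn, counts ran from 27 to 34 for any stage difference, 15 to 20 higher and 4 to 6 lower at E16.5 against E11.5, 8 to 10 higher and 1 to 5 lower at E13.5 against E11.5, 0 to 12 at E14.5 against E13.5, 7 to 16 higher and 1 to 3 lower at E16.5 against E14.5, and 9 to 17 for late minus early. The 0 arose without replicate 2 of E13.5 and without replicate 1 or 3 of E14.5, with 11 to 13 members at an unadjusted p under 0.05 by limma.

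The single member lower at E16.5 than at E14.5 became 4 and 3 with normexp correction (offsets 16 and 50), 2 with a stricter floor and 2 with the mean of a gene's probes. The 4 members called at E14.5 against E13.5 became 2 with no filter on dim probes, and the 3 lower at E13.5 than at E11.5 became 1 when all arrays had to pass the floor. With array weights, 8 were lower at E13.5 than at E11.5, 13 were called at E14.5 against E13.5, 26 were higher and 7 lower at E16.5 than at E14.5, and 23 differed between windows. Without replicate 1 of E15.5 and E16.5, 9 were called at E14.5 against E13.5, 2 were lower at E16.5 than at E14.5 and 20 differed between windows. Without that of E13.5 as well, a choice made after seeing the data, these were 14, 3 and 24, with 8 lower at E13.5 than at E11.5 and 23 higher at E16.5 than at E14.5. Fits of only the stages compared gave 1 lower at E13.5 than at E11.5, 0 at E14.5 against E13.5 (13 at an unadjusted p under 0.05 by limma) and 3 lower at E16.5 than at E14.5, with fewer samples by construction. For the other settings the cause was not tested.

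With the replicate number as a block, 18 were higher and 5 lower at E16.5 than at E11.5, 8 were called at E14.5 against E13.5 and 3 were lower at E16.5 than at E14.5. The block added the call of Ctsb between E16.5 and E11.5 and changed no other call there. For a probe under the floor on all arrays of a stage, only a bound on the change was measured.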
